A study of Mus musculus with 2 samples.

Results

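The genes described here are 6 members of the MHC class II pathway counted in cells of mouse 4T1 mammary tumours: H2-Aa, H2-Ab1, H2-Eb1, H2-DMb2, H2-Ob and Cd74. They were chosen by name, and all 6 were found among the 396 genes counted in every table. Cells came from primary tumours grown from 4T1 cells, a mouse mammary carcinoma line, in the mammary fat pad of female BALB/c mice. The mice were 8 weeks old, and treatment began at 7 days. The 4 arms were isotype control antibody, anti-Siglec-E antibody, anti-PD-1 antibody, and both blocking antibodies together, with 6 mice per arm and 2 tumours per arm taken for single cells. Every group thus shared the 4T1 tumour, a single cell line, and received an antibody. Epithelial (EPCAM-positive) and immune (EPCAM-negative) fractions were recombined at 1 to 4, so the share of tumour cells was set by the experimenters. Each of the 2 samples was 1 cartridge that held 2 arms. Tags 1 and 2 marked the no-anti-PD-1 pool, whose arms were isotype control and anti-Siglec-E. Tags 3 and 4 marked the anti-PD-1 pool, whose arms were anti-PD-1 alone and the combination. Which of a pool's tags is which arm is not in the labels, so values are given by tag. Tags are not replicates, no test was possible with 1 sample per pool, and pool and cartridge cannot be told apart.

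MHC class II molecules are pairs of an alpha and a beta chain that show peptides from engulfed proteins to CD4 T cells. H2-Aa and H2-Ab1 encode the alpha and beta chains of I-A, and H2-Eb1 the beta chain of I-E, both of which BALB/c mice make. Cd74 encodes the invariant chain, which fills the peptide groove during transport. H2-DMb2 encodes a beta chain of H2-M, which removes the invariant chain remnant and helps load peptides, and H2-Ob the beta chain of H2-O, which restrains H2-M and is best known in B cells. Dendritic cells, B cells and macrophages carry the pathway at rest, mouse T cells do not, and epithelial cells can acquire it under interferon gamma through the transactivator CIITA.

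Class II genes are switched on together through shared boxes just upstream of their starts, so the upstream sequence is shown for the 4 members found in the RefSeq promoter table (build GRCm38.p6); H2-Ab1 and Cd74 are named only. Each line gives the 250 bases before the start site, 5′ to 3′ on the gene's own strand. Capitals mark CCAAT on either strand (the Y box, read as ATTGG when it lies on the opposite strand), TGACG on either strand (the core of the X2 box) and AACNNATGA on either strand, letters within the X box.
H2-DMb2, chr17:34144999-34145248, plus strand: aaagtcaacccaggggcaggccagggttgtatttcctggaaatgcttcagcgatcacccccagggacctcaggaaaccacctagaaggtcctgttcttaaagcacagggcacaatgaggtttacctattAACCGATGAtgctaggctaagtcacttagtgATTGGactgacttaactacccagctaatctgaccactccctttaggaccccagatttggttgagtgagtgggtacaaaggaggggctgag
H2-Ob, chr17:34238655-34238904, plus strand: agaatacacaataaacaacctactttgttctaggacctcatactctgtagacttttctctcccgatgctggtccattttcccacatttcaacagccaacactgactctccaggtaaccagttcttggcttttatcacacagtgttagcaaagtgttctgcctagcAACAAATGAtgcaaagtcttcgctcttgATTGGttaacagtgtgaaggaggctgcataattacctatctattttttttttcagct
H2-Aa, chr17:34287824-34288073, minus strand: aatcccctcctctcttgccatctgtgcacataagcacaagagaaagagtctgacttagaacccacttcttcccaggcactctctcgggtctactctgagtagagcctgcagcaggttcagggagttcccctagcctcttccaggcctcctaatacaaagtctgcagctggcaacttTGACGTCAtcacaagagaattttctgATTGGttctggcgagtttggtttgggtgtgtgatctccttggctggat
H2-Eb1, chr17:34305617-34305866, plus strand: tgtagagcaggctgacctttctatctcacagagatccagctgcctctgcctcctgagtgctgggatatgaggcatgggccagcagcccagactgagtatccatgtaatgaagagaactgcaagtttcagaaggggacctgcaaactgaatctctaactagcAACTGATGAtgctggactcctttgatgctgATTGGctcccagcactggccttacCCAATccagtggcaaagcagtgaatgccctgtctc
CCAAT was found in all 4 windows, at 90 bases before the start in H2-DMb2, 57 in H2-Ob, 48 in H2-Aa, and 59 and 35 in H2-Eb1. It occurs in 37.4% of 32851 promoter windows of 300 bases, which run 50 bases past the start. AACNNATGA, a pattern chosen after the sequences were seen, lay further upstream in H2-DMb2, H2-Ob and H2-Eb1, and 2.85% of windows hold it. H2-Aa instead had TGACG on both strands at overlapping positions, 74 and 71 bases before the start, and 20.8% of windows hold that motif. These matches are descriptions of letters, not of binding. The RefSeq start of H2-Eb1 lies upstream of the start of its panel transcript in GENCODE. By the annotation (GENCODE M21, GRCm38), H2-Aa lies at chr17:34282744-34287823, H2-Ab1 at chr17:34263209-34269419, H2-Eb1 at chr17:34306017-34316199, H2-DMb2 at chr17:34145236-34151553 and H2-Ob at chr17:34238903-34245906. H2-Aa is on the minus strand and has 5 exons, and the other 4 are on the plus strand with 6 exons each.

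Of 12018 cells, tags 1 to 3 held 2430, 1515 and 6620 and tag 4 the others. Tags 1 to 4 had 5318288, 2993684, 12416134 and 3074544 molecules of shared genes and a median of 1463, 1325, 1262 and 1419 per cell. No cell index was shared within a cartridge, and 2 to 16 indices were shared between tags of different cartridges. Cells were sorted into gates by marker genes, none of them a class II member. Neutrophils had at least 5% of their molecules from S100a8 and under 1% from Lgals1, and tumour cells at least 10% from Lgals1. Every gate but neutrophils required under 5% from S100a8. Macrophages, monocytes, dendritic cells and T cells also required under 10% from Lgals1. Macrophages had at least 5 molecules of the complement genes C1qa and C1qb, and dendritic cells at least 2 of Flt3 or 3 each of Ccr7 and Fscn1. B cells had at least 5 molecules of B cell receptor and surface genes such as Cd79a. T cells, gated by CD3 and receptor chain genes, give the background of cells that should lack class II transcripts, and monocytes (Ccr2 and Lyz2 with little C1q) were added for context. Tags 1 to 4 gave 239, 71, 163 and 110 tumour cells, 63, 24, 101 and 17 macrophages, 11, 11, 63 and 11 dendritic cells, and 3, 4, 26 and 11 B cells. They gave 1521, 978, 4468 and 780 neutrophils, 54, 41, 99 and 42 monocytes, and 53, 60, 409 and 156 T cells. The tumour label was checked against Epcam, Cdh1 and Msln, epithelial genes counted in tags 2 to 4 alone. At least 3 molecules of them together were present in 85.9, 91.4 and 92.7% of tumour-gated cells of those tags, against 1.53, 1.23 and 1.28% of neutrophils. The same held for 25, 40.6 and 29.4% of macrophages and 10, 13.2 and 10.9% of T cells.

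Levels are given as counts per 1000000 shared panel molecules (CPM), with exact Poisson 95% intervals that cover counting error only. The panel amplifies each gene with its own primers, so levels are compared between cells for 1 gene and not between genes. For H2-Aa, the I-A alpha chain, CPM values of dendritic cells in tags 1 to 4 were 59831 (57089.9 to 62670.4), 88373 (84673 to 92194), 109846 (107914 to 111803) and 126535 (121910.0 to 131289). Macrophages stood at 41061, 37640.4, 57183 and 69606 CPM. Dendritic cells were above macrophages in each of the 4 tags, although the ranges over tags overlapped. B cells, on few cells, had 37051, 41849, 64697 and 28232 CPM of H2-Aa. Monocytes had 25795, 35173, 18171 and 29873 CPM, below macrophages of the same tag in all 4. The next level down was the tumour gate, whose CPM values were 4154 (4029 to 4282), 6869 (6566 to 7183), 15655 (15313 to 16003) and 14394 (13993 to 14804). With this Lgals1 gate, no tag's tumour cells reached the lowest monocyte value, and none fell to the highest T cell value. With a tumour gate built on Epcam, Cdh1 and Msln instead, H2-Aa was at 12969, 23776 and 17492 CPM in tags 2 to 4. The tag 3 value was then above the 18171 CPM of tag 3 monocytes, so the order of these gates depends on the tumour gate. T cells had 2968, 611, 1489 and 1281 CPM, and in tag 1 a single T cell held 173 of the 189 molecules. Neutrophils had 768, 1080 (1032 to 1129), 661 and 1106 CPM, a range that the T cell range contains.

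**Figure D1:**
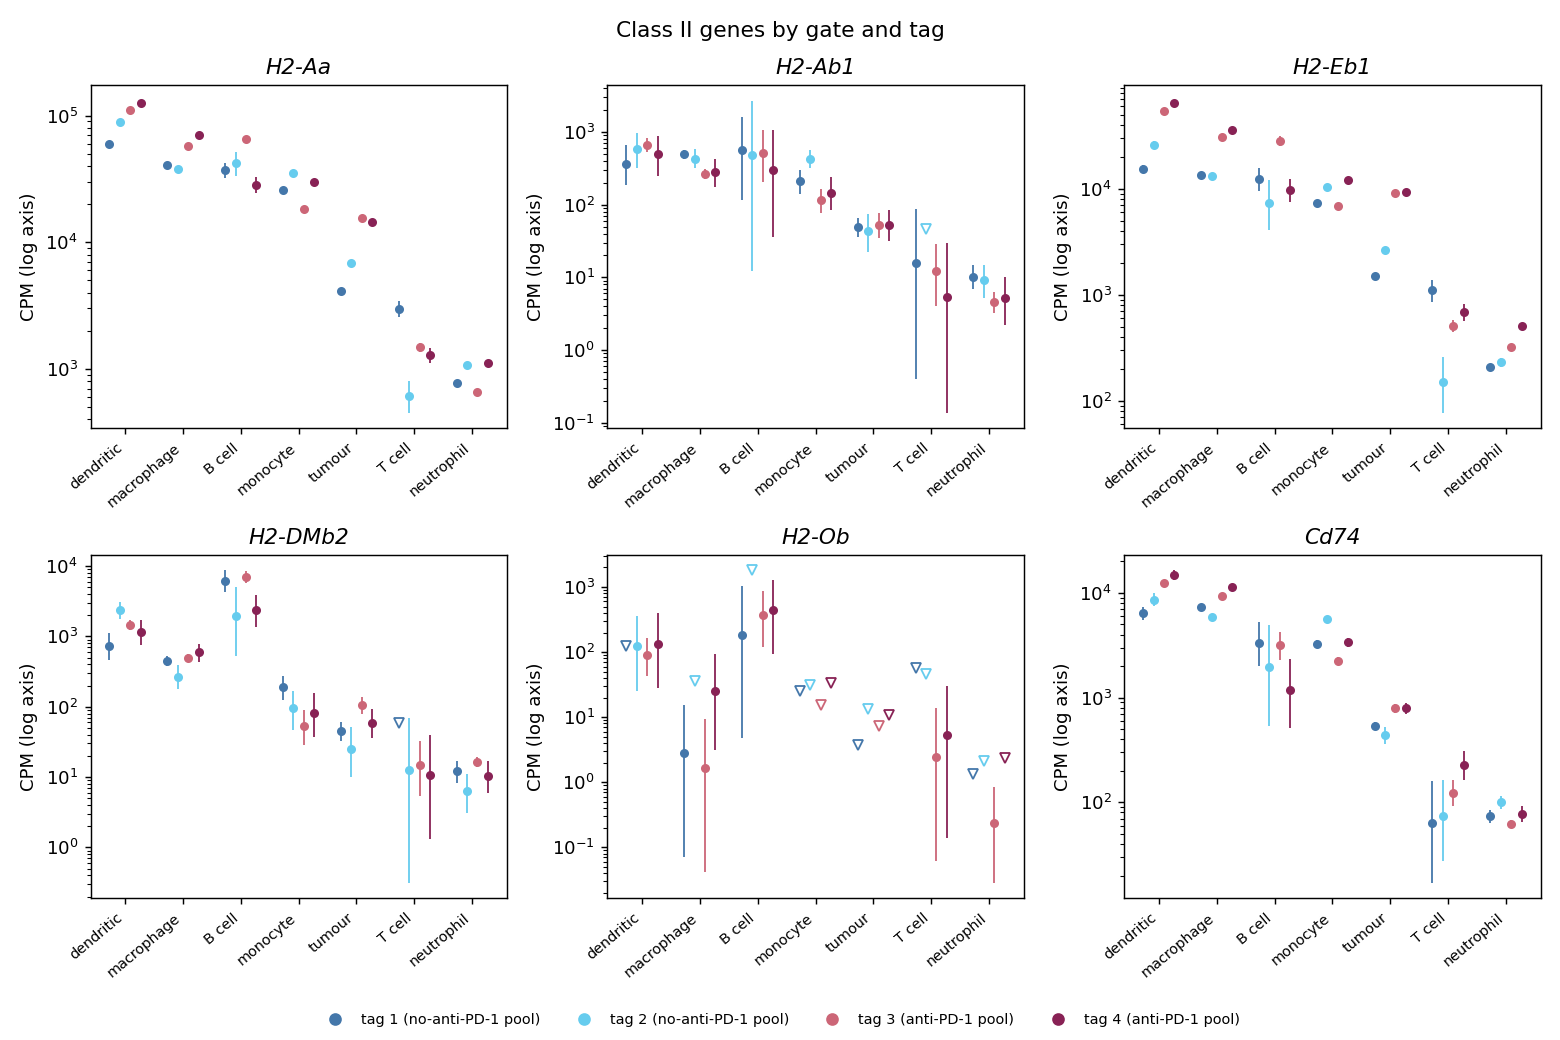
Counts per 1000000 panel molecules (log axis) of each class II gene in 7 gates, 1 point per tag with its exact Poisson 95% interval; open triangles mark the upper limit where no molecule was counted. For H2-Aa the tumour gate (4154 to 15655 CPM) lies between the monocytes and the T cells, and for H2-DMb2 and H2-Ob the B cells are highest in tags 1, 3 and 4.

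H2-Eb1, the I-E beta chain, followed a similar order of gates. Its levels were 15359, 25873, 54330 and 64612 CPM in dendritic cells and 13534, 13128, 30778 and 36119 CPM in macrophages of tags 1 to 4. B cells had 12288, 7299, 28222 and 9807 CPM and monocytes 7269, 10357, 6848 and 12000.1 CPM. CPM values of tumour cells were 1497 (1422 to 1574), 2627 (2441 to 2823), 9154 (8893 to 9421) and 9312 (8989 to 9642). In tags 3 and 4 this overlapped the monocyte range, whereas in tags 1 and 2 it was below every monocyte value. T cells had 150 to 1099 CPM and neutrophils 207 to 505 CPM. H2-Ab1, the I-A beta chain, gave few molecules with this panel, 408, 207, 501 and 118 in all cells of tags 1 to 4. Its CPM values in macrophages were 490.4 (421 to 568), 431 (315 to 577), 268 (228 to 312) and 283 (177 to 428), and those in dendritic cells ranged from 368 to 669. In tumour cells H2-Ab1 was at 48.9, 42.7, 53.1 and 53.2 CPM, from 49, 12, 27 and 18 molecules. These tumour values differed by less than their counting intervals, of which the widest ran from 22.1 to 74.6 CPM.

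Cd74, the invariant chain, stood at 6425, 8652, 12488 and 14697 CPM in dendritic cells and 7339, 5845, 9272 and 11406 CPM in macrophages. The order of those gates differed by tag, with macrophages higher in tag 1 and dendritic cells higher in tags 2 to 4. Monocytes had 2262 to 5638 CPM and B cells 1189 to 3351 CPM of Cd74. Tumour cells, with 537 (493 to 585), 438 (364 to 522), 791.2 (716 to 872) and 791.5 (700 to 892) CPM, were below every B cell and monocyte value and above every T cell value (62.8, 74.8, 124 and 227 CPM). H2-DMb2, the H2-M beta chain, had CPM values in B cells of 6144 (4229 to 8629), 1946 (530 to 4984), 7000.2 (5664 to 8557) and 2377 (1359 to 3861), from 33, 4, 95 and 16 molecules. Dendritic cells had 736, 2348, 1463 and 1165 CPM and macrophages 446, 268, 494 and 591 CPM of H2-DMb2. B cells were thus above dendritic cells in tags 1, 3 and 4 and within counting error in tag 2. H2-DMb1, a near-identical neighbour, was not analysed here, and whether its molecules were counted as H2-DMb2 was not tested. H2-Ob, the H2-O beta chain, was the scarcest member, with 48 molecules in all. Dendritic cells held 33.3% of them (16 molecules) and B cells 18.8% (9 molecules). No H2-Ob molecule was counted in 239, 71, 163 and 110 tumour cells, which by the limit of 3 counts allows up to 1.26, 4.23, 1.84 and 2.73% of cells with a molecule of it. That limit covers counting error only and says nothing of cells that express H2-Ob below what was captured. Monocytes had no H2-Ob molecule either.

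Within a gate the cells were far from uniform. The median macrophage held 140, 89, 318 and 340 molecules of H2-Aa in tags 1 to 4, and 80% of macrophages in tag 3 lay between 49 and 633 molecules. Tumour cells had medians of 1, 3, 20 and 29.5 molecules, with upper quartiles of 8.5, 32, 66 and 67.8. In tag 1 the 24 tumour cells richest in H2-Aa, the top 10%, held 79.1% of the gate's molecules, and 1 cell held 738. In tag 4 the top 10%, 11 cells, held 30% and the highest cell 190 molecules. The low tumour level of tag 1 thus went with many cells at 0 or 1 molecule beside a few rich ones. At least 10 H2-Aa molecules were held by 22.6, 39.4, 65.6 and 80% of tumour cells in tags 1 to 4. Monocytes were also split. Their medians were 4, 33, 2 and 21.5 H2-Aa molecules, and 46.3, 51.2, 45.5 and 57.1% of them held at least 10. Neutrophils mostly held none, and the 1% richest neutrophils (16, 10, 45 and 8 cells) held 54.4, 57.1, 73.2 and 81.9% of the gate's H2-Aa. Neutrophils with at least 10 H2-Aa molecules made up 1.97, 3.37, 1.28 and 1.67% of the gate. B cells had medians of 87, 19, 0 and 0, and 3 of 3, 2 of 4, 12 of 26 and 5 of 11 of them held any H2-Aa. Median depth was 1122, 500, 471 and 482 molecules per B cell, lower than in macrophages (4923, 3665, 5591 and 4279).

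**Figure D2:**
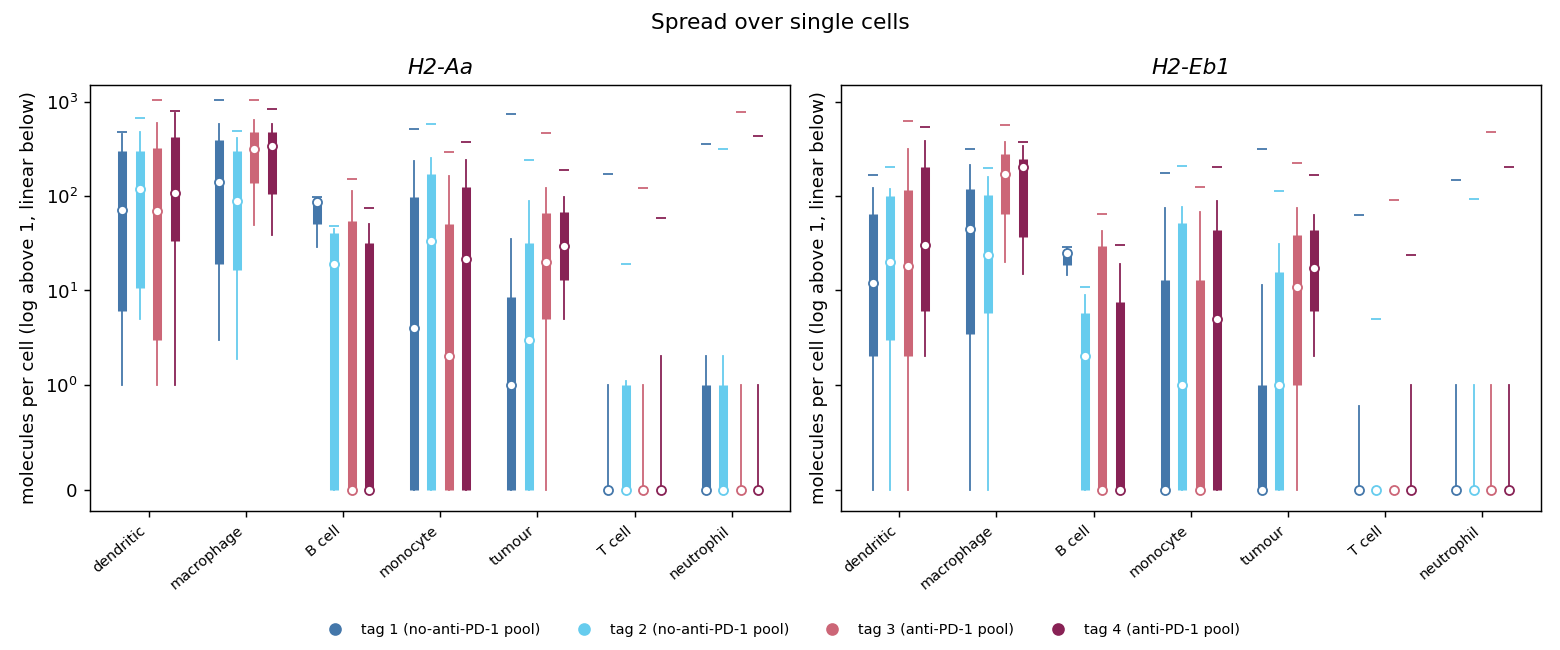
Molecules of H2-Aa and H2-Eb1 per cell in each gate and tag; open circles are medians, thick bars the middle 50% of cells, thin lines the 10th to 90th percentiles and dashes the highest cell, on an axis that is logarithmic above 1. Tumour medians of H2-Aa run from 1 in tag 1 to 29.5 in tag 4, and T cell and neutrophil medians are 0.

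Cells of the tumour gate carried H2-Aa more often than the background T cells in all 4 tags, also at equal depth. H2-Aa was found in 59.4% (52.9 to 65.7), 66.2% (54.0 to 77.0), 88.3% (82.4 to 92.8) and 96.4% (91.0 to 99.0) of tumour cells in tags 1 to 4, with exact Clopper-Pearson 95% intervals. The share was 13.2, 30, 13 and 17.9% of T cells and 29.8, 31.5, 18.9 and 17.7% of neutrophils. Tumour cells were deeper, with medians of 3732, 3159, 2486 and 2914 molecules against 745 to 945 in T cells. After every cell was thinned to 500 molecules, 35.6% (29.5 to 42.1), 51.5% (39.0 to 63.8), 81.6% (74.5 to 87.4) and 89.9% (82.7 to 94.9) of tumour cells held H2-Aa. At that depth the T cell shares were 7.14, 11.3, 8.79 and 11.5%, with 6, 3, 11 and 1 tumour cells left out as too shallow and 42, 53, 307 and 122 T cells kept. The intervals of tags 3 and 4 lay above those of tags 1 and 2. Thinned shares of H2-Eb1 followed the same order, with 18 and 38.2% in tags 1 and 2 and 69.1 and 83.5% in tags 3 and 4, against 11.9, 7.55, 5.54 and 13.9% of T cells. In tag 1 the H2-Eb1 intervals of tumour cells (13.3 to 23.6%) and T cells (3.98 to 25.6%) overlapped. Cd74 was found in 8.58, 13.2, 21.1 and 33.9% of thinned tumour cells, against 4.76, 7.55, 1.30 and 4.10% of T cells. In tags 1 and 2 the Cd74 intervals of the tumour gate (5.32 to 12.9% and 6.23 to 23.6%) overlapped those of T cells (0.58 to 16.2% and 2.09 to 18.2%), while the Cd74 levels from all molecules were above those of T cells in both tags. Thinned H2-Ab1 was found in 1.29, 1.47, 3.95 and 2.75% of tumour cells against 2.38, 0, 0.65 and 0% of T cells, and H2-DMb2 in 1.72, 0, 5.92 and 3.67% against 0, 1.89, 0.65 and 1.64%. Macrophages at equal depth held H2-Aa in 80.3, 83.3, 98.0 and 93.3% of cells.

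**Figure D3:**
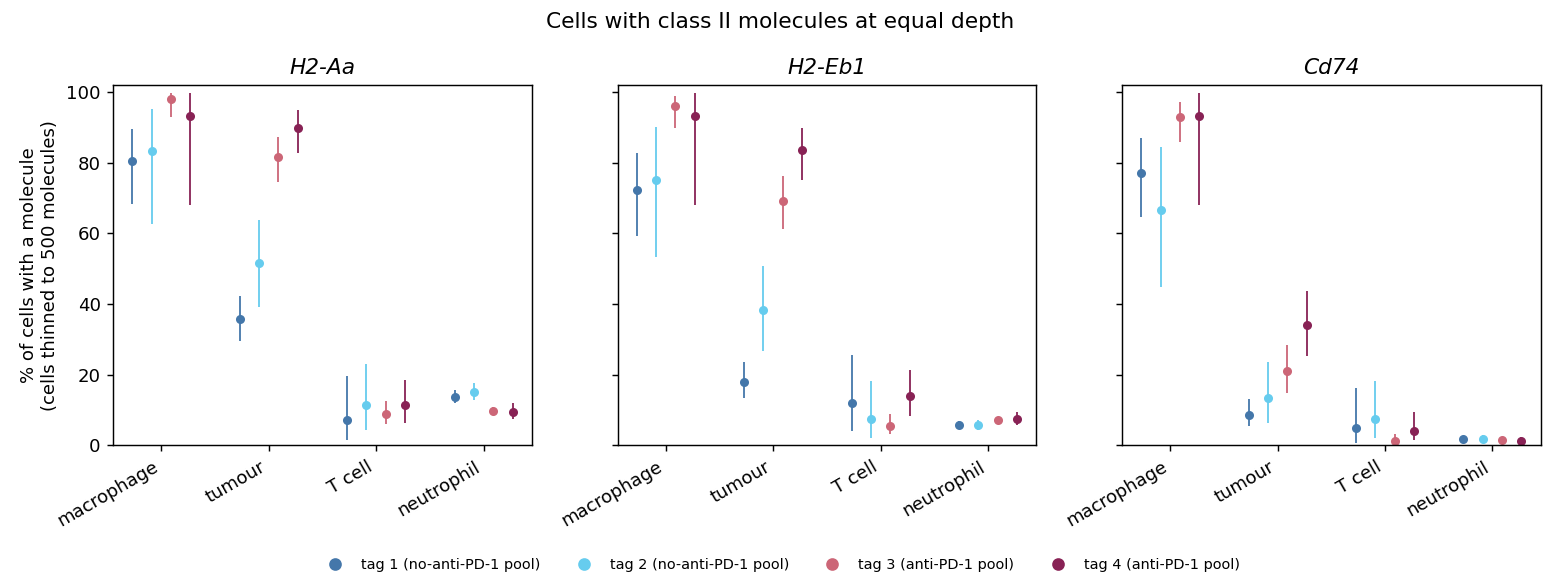
Percentage of cells with at least 1 molecule of H2-Aa, H2-Eb1 or Cd74 after thinning each cell to 500 molecules, by gate and tag, with exact Clopper-Pearson 95% intervals. Tumour cells hold H2-Aa in 35.6 to 89.9% of cells, T cells in 7.14 to 11.5%.

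Macrophage transcripts were also counted in the tumour gate, with 5, 5, 5 and 4 of the 5 markers C1qa, C1qb, Trem2, Adgre1 and Cd14 detected and sums of 1816, 1751, 1533 and 1296 CPM. C1qa stood at 107, 214, 9.84 and 2.95 CPM and Trem2 at 161, 171, 88.6 and 11.8 CPM in tumour cells of tags 1 to 4, lower in both tags of the anti-PD-1 pool than in both of the other. H2-Aa and H2-Eb1 were also summed without the cells that carried any of the 5 markers. Cd14 was found in 61.3 to 77.5% of tumour cells. Taking only the 57, 14, 57 and 42 tumour cells with no molecule of any of the 5 markers, H2-Aa was at 3995, 8734, 14017 and 14898 CPM and H2-Eb1 at 1393, 3484, 7985 and 8943 CPM. Cd74 was at 211, 196, 498 and 596 CPM in those cells. Against all tumour cells, H2-Aa and H2-Eb1 were lower in some tags and higher in others, and Cd74 was lower in each tag. The log2 ratio of the pools was 1.18 for H2-Aa and 1.80 for H2-Eb1, against 1.45 and 2.16 with all tumour cells. Cells with no marker molecule counted can still hold macrophage transcripts, so the part of such transcripts in the tumour values was not tested. Of the 8 B cell markers, 2 or 3 were detected in the tumour gate, together at 11.8 to 17.8 CPM. The 6 T cell markers summed to 347, 214, 1136 and 597 CPM in the tumour gate, and their part in the result was not tested.

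The proportions of the class II genes to each other differed between gates. For each 100 H2-Aa molecules, tumour cells held 12.9 (11.8 to 14.2), 6.37 (5.27 to 7.65), 5.05 (4.56 to 5.59) and 5.5 (4.84 to 6.22) Cd74 molecules in tags 1 to 4. Macrophages held 17.9, 15.5, 16.2 and 16.4, and dendritic cells 10.7, 9.79, 11.4 and 11.6. The tumour ratio was below the macrophage ratio in all 4 tags, and in tags 2 to 4 it was also below that of dendritic cells and neutrophils (9.26, 9.48 and 7.03), with overlapping intervals for neutrophils in tag 4. B cells had a lower value than tumour cells in each tag, at 9.05 (5.25 to 14.7), 4.65 (1.24 to 12.3), 4.90 (3.52 to 6.65) and 4.21 (1.79 to 8.47), from 18, 4, 43 and 8 Cd74 molecules, and their intervals overlapped those of tumour cells in all 4 tags. H2-DMa, the alpha chain of H2-M, behaved differently. Tumour cells held 16.3, 15.9, 14.9 and 17.7 H2-DMa molecules per 100 of H2-Aa, against 9.03, 10.5, 8.74 and 9.21 in macrophages and 6.20 to 7.60 in dendritic cells. Neutrophils, with 6.33, 5.42, 7.60 and 6.39, were below the tumour gate in every tag. Monocytes, with 14.8, 11, 17.0 and 15.9, were closer to it and above it in tag 3. The background T cells, with few molecules, held 14.8, 63.3, 23.6 and 37.6, above the tumour gate in tags 2 to 4. B cells stood apart by H2-DMb2, with 16.6, 4.65, 10.8 and 8.42 molecules per 100 of H2-Aa, against at most 2.66 in dendritic cells, 1.09 in macrophages and 1.08 in tumour cells. The B cell value of tag 2 rests on 4 molecules, and its interval of 1.24 to 12.3 includes the dendritic value.

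H2-Eb1 relative to H2-Aa split by pool in tumour cells, macrophages, dendritic cells, neutrophils and monocytes. Tumour cells held 36.0 (33.9 to 38.2), 38.2 (35.1 to 41.6), 58.5 (56.4 to 60.6) and 64.7 (61.8 to 67.7) H2-Eb1 molecules per 100 H2-Aa. Macrophages held 33.0, 34.9, 53.8 and 51.9, and dendritic cells 25.7, 29.3, 49.5 and 51.1. Neutrophils held 26.9, 21.5, 48.4 and 45.7, at H2-Aa levels within the T cell range, and monocytes 28.2, 29.4, 37.7 and 40.2. Both tags of the anti-PD-1 pool were above both of the other pool in all 5 of these gates. T cells, with few molecules, did not split this way (37.0, 24.5, 34.3 and 53.6). Cells that met no gate showed 27.4, 29.4, 49.6 and 54.0. Tag 1 was counted against another target reference than tags 2 to 4, and the part of the reference in these ratios was not tested. The shift was also present cell by cell. Among cells with at least 20 H2-Aa molecules, the median per 100 H2-Aa was 30, 39.3, 58.6 and 62.3 in tumour cells and 32.2, 35.1, 53.3 and 52.7 in macrophages. In monocytes these medians were 28.1, 28.8, 29.9 and 32.7, close together, so the split of the monocyte sums was not seen in these medians. Only 21 of 54, 21 of 41, 40 of 99 and 22 of 42 monocytes held that many H2-Aa molecules. H2-Aa and H2-Eb1 went together across tumour cells, with Spearman's rho of 0.75, 0.90, 0.90 and 0.91 over 239, 71, 163 and 110 cells that also share depth. H2-Ab1 relative to H2-Aa ran the other way in macrophages, at 1.19 (1.02 to 1.39), 1.15 (0.83 to 1.54), 0.47 (0.40 to 0.55) and 0.41 (0.25 to 0.62) molecules per 100. Both tags of the anti-PD-1 pool were also lower in the remaining gates of the 5. Tumour cells held 1.18, 0.62, 0.34 and 0.37, neutrophils 1.33, 0.84, 0.68 and 0.46, and monocytes 0.81, 1.22, 0.63 and 0.49. Dendritic cells held 0.62, 0.65, 0.61 and 0.39, and cells that met no gate 0.99, 1.06, 0.49 and 0.35. In tumour cells, neutrophils, monocytes and dendritic cells the intervals of the nearest tags overlapped.

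**Figure D4:**
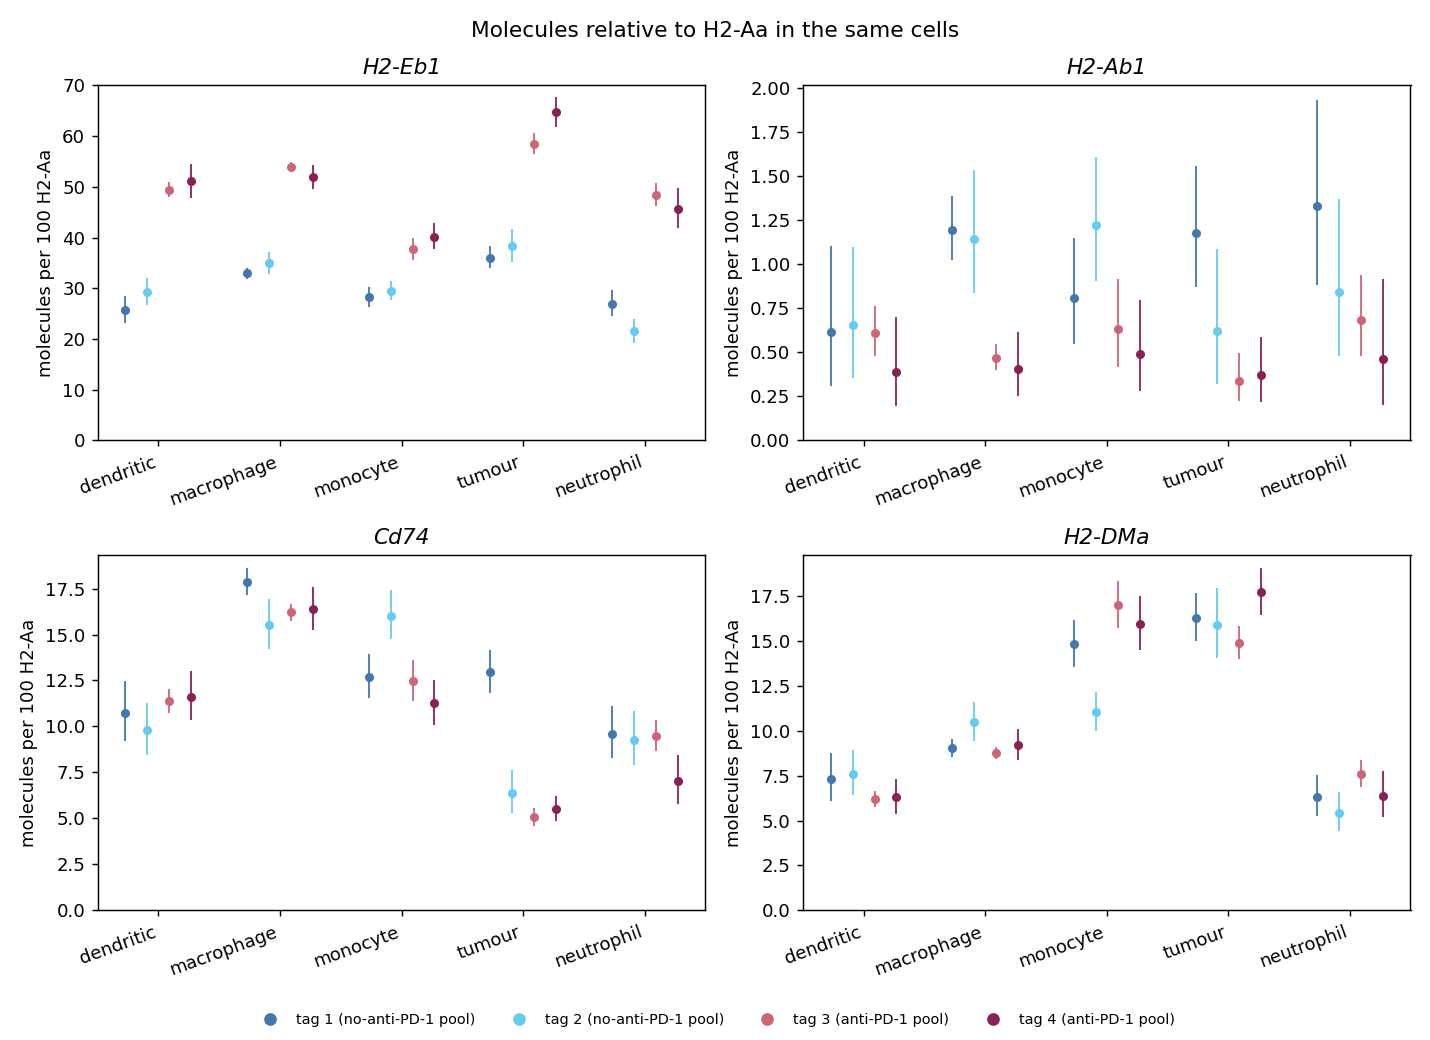
Molecules of H2-Eb1, H2-Ab1, Cd74 and H2-DMa per 100 molecules of H2-Aa in 5 gates, 1 point per tag, with exact 95% intervals for counting error. H2-Eb1 is higher in tags 3 and 4 in each gate (58.5 and 64.7 against 36.0 and 38.2 in tumour cells), and in tags 2 to 4 Cd74 is lowest in tumour cells among the 5 gates drawn, which leave out B cells (4.65, 4.90 and 4.21).

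The design asks how the pool given anti-PD-1 differed from the pool without it. A gene counted as higher or lower when both tags of a pool lay beyond both tags of the other, with a gap of at least 1.5-fold between the closest tags, and the gene had at least 30 molecules over the 4 tags. In the tumour gate H2-Aa and H2-Eb1 were higher in the anti-PD-1 pool, by 1.45 and 2.16 on the log2 scale, 2 of the 5 members with enough molecules. By the same rule 9.12% of 285 genes were higher and 8.42% lower, and the median gene was at -0.09. The nearest tags were 2.10-fold apart for H2-Aa and 3.49-fold for H2-Eb1. Cd74 (log2 ratio 0.70) and H2-DMb2 (1.23) had both tags above the other pool but nearest tags 1.47-fold and 1.32-fold apart, and H2-Ab1 was at 0.22. Under trimmed-mean (TMM) scaling, and without tag 1, all of H2-Aa, H2-Eb1, H2-DMb2 and Cd74 were called, and with looser gates H2-Eb1 alone. With a tumour gate built on Epcam, Cdh1 and Msln in tags 2 to 4, an alternative added after the data were seen, H2-Eb1 was called (4452, 12969.6 and 10695 CPM). H2-Aa was not called there, at 12969, 23776 and 17492 CPM. With stricter gates the log2 ratio of H2-Aa was 2.25 and that of H2-Eb1 2.85, and Cd74 was called as well (1.72).

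In macrophages H2-Eb1 was higher in the anti-PD-1 pool, by 1.33, and H2-Ab1 was lower, by a log2 ratio of -0.74. Of 258 genes, 1.55% were higher and 6.98% lower, so H2-Eb1 was 1 of 4 higher genes, and the median gene was at -0.19. H2-Aa, at 0.69, and Cd74, at 0.65, had both tags above the other pool but nearest tags 1.39-fold and 1.26-fold apart. Both were called under TMM scaling, without tag 1, without tag 3 and without the 5% deepest cells. H2-Ab1 lost its call under TMM scaling (-0.52), with stricter gates (-0.56) and without S100a8, S100a9 and Fth1 in the total (-0.69). Since macrophages carried epithelial molecules, the 18, 60 and 12 macrophages of tags 2 to 4 with under 3 of them were also compared. H2-Eb1 was then at 10633, 30657 and 38011 CPM, a log2 ratio of 1.69, against 1.35 for all macrophages of tags 2 to 4. The part of epithelial carry-over in the macrophage levels was not tested. In dendritic cells H2-Eb1 was higher, by 1.53, where 4.39% of 228 genes were higher and 7.02% lower and the median gene was at -0.23. With looser gates the H2-Eb1 ratio was 0.94. H2-Aa (0.67) and Cd74 (0.85) of dendritic cells had nearest tags 1.24-fold and 1.44-fold apart, and tags 1, 2 and 4 had only 11 cells each.

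Monocytes gave no member call in either direction, against 1.86% of 215 genes higher and 4.65% lower. Their H2-Eb1 (log2 ratio 0.10) and H2-Aa (-0.34) had overlapping tags. H2-Ab1 of monocytes, at -1.29 with nearest tags 1.43-fold apart, passed the rule with stricter gates (-1.57), with looser gates (-1.74) and without tag 1 (-1.72) or tag 4 (-1.47). In neutrophils H2-Ab1 was lower, by a log2 ratio of -1.0, with 10.2, 9.09, 4.5 and 5.14 CPM from 28, 16, 38 and 8 molecules. Counting intervals of tags 2 (5.20 to 14.8) and 4 (2.22 to 10.1) overlapped. S100a8 alone stood at 341760, 343687, 417454 and 427521 CPM in neutrophils of tags 1 to 4. With S100a8, S100a9 and Fth1 out of the total, H2-Ab1 was not called (-0.71). Of 332 genes in neutrophils, 6.02% were higher and 7.83% lower. H2-Aa of neutrophils overlapped between pools (log2 ratio -0.06), and H2-Eb1 was at 0.91 with nearest tags 1.38-fold apart. H2-Eb1 of neutrophils was called with looser gates (1.00) and under TMM scaling (1.09). It was also called without S100a8, S100a9 and Fth1 in the total (1.21), without tag 2 (1.00) and without tag 3 (1.20). In bulk sums of a gate, fewer rich cells and fewer molecules per cell cannot be told apart. B cells were too few in tags 1 and 2 to be compared between pools.

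**Figure D5:**
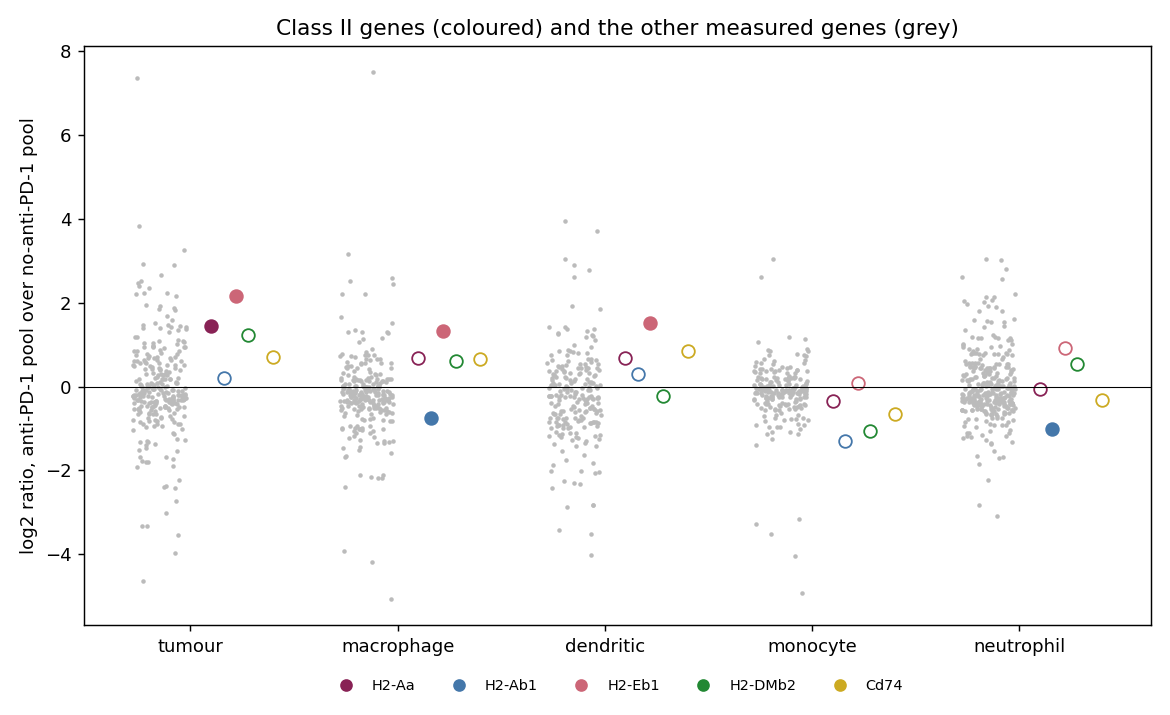
Log2 ratio of the anti-PD-1 pool over the no-anti-PD-1 pool (means of 2 tags each) for class II genes (coloured circles, filled where called) and all other genes with at least 30 molecules (grey) in 5 gates. H2-Eb1 is filled in tumour cells (2.16), macrophages (1.33) and dendritic cells (1.53), and H2-Ab1 is filled and below 0 in macrophages and neutrophils.

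Other genes of the pathway were read from fixed lists. H2-DMa was higher in the tumour gate of the anti-PD-1 pool, with CPM values of 677 (627 to 730), 1093 (974 to 1222), 2332 (2201 to 2469) and 2552 (2384 to 2728), a log2 ratio of 1.46. It was not called in macrophages (0.58), dendritic cells (0.41), monocytes (0.03) or neutrophils (0.17). H2-K1, the class I heavy chain, stood at 91778, 110920, 147599 and 169581 CPM in tumour cells, a log2 ratio of 0.65 with nearest tags 1.33-fold apart, and was not called in any gate. Of 6 genes of the interferon gamma axis counted in all tags, Cxcl9 and Irf7 were higher in tumour cells and none lower. Over all 285 genes 9.12% were higher and 8.42% lower. The median log2 ratio was 0.67 over the 6 genes against -0.09 over all genes. Cxcl9, a chemokine induced by interferon gamma, was there at 499, 719, 1248 and 1110 CPM. Cxcl10 of tumour cells was at 1361, 1534, 1514 and 1099 CPM and not called. Ifng itself gave 5, 0, 35 and 4 molecules in the tumour gate and was not called. Its log2 ratio of 2.37, with the tag at 0 set to 3 counts, is part of the median over the 6 genes. In macrophages 0 of the 5 measured axis genes were called, where 1.55% of 258 genes were higher and 6.98% lower. Cxcl9 of macrophages was at 3192, 2520, 1122 and 1721.2 CPM. Monocytes had Cxcl9 lower, at 761, 935, 266 and 383 CPM, and neutrophils had Ifng higher, at 2.56, 2.84, 6.99 and 9.63 CPM, from 7, 5, 59 and 15 molecules.

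The costimulatory genes Cd86 and Cd40 and the PD-1 ligand gene Cd274 were measured in each of the 5 gates, and none was called. Cd86 of macrophages was at 1335, 1677, 1075 and 963 CPM, and Cd40 of dendritic cells at 1606, 2101.2, 1151 and 358 CPM. Cd83, a dendritic maturation gene counted in tags 2 to 4 alone, stood at 13349, 11248 and 8648 CPM in dendritic cells and 4830, 2504 and 2351 CPM in macrophages. In dendritic cells the anti-PD-1 pool showed lower levels of the lysosomal protease Ctsd (8968, 4820, 2283 and 2151 CPM) and the lipid-presenting Cd1d1 (636, 618, 321 and 224 CPM), 2 of the 6 other pathway genes. By the same rule 7.02% of 228 genes were lower there. Cd1d1 rests on 19, 15, 36 and 5 molecules. Il10, a cytokine that dampens antigen presentation, was lower in macrophages of the anti-PD-1 pool, at 3374, 2290.2, 1492 and 398 CPM. Cd4, the coreceptor that binds class II, was not called in any gate where it was measured.

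Likeness over the 28 combinations of gate and tag was sought among 324 genes, without the members, the gate markers and genes under 100 molecules. Members were thus not compared with each other. Among those 324, the gene most like H2-Aa, H2-Eb1 and Cd74 in CPM was H2-DMa, with Spearman's rho of 0.94, 0.95 and 0.96. Next came Cd40 and Blnk for H2-Aa (0.83 and 0.80) and for H2-Eb1 (0.75 and 0.72), and Ly86 and Cxcl16 for Cd74 (0.81 and 0.80). H2-Ab1 was most like Cd40 (0.90), Blnk (0.84) and H2-DMa (0.83), and H2-DMb2 like Cd40 (0.93), Blnk (0.90) and Slc7a7 (0.77). H2-Ob, with its 48 molecules, was nearest to Dock8 (0.66), Cd38 (0.60) and Irf4 (0.59). These are descriptions over points that share libraries and gates.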

How the data were processed

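Cells of 4T1 tumours were measured with the BD Rhapsody mouse immune response panel in 2 cartridges with 4 sample tags. The deposited tables hold counts of molecules per cell and gene, after distribution-based error correction. Per the file headers, the authors made them with version 1.12.1 of the BD Rhapsody Targeted Analysis Pipeline. Tag 1 was counted against another reference file than tags 2 to 4, per the file headers. The submitters' processing notes name Seurat 3.2.0. Aligner and build: not given in the sources used here. The 396 genes counted in all 4 tags form the total for CPM, and genes counted in tags 2 to 4 alone were scaled to the same total.

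Gates were thresholds on molecules of marker genes, set after the marker distributions had been seen and on no class II gene. No doublet caller was run, and the 124 cells that met several gates were left out of each. The Lgals1 limits keep the tumour gate from overlapping the macrophage, monocyte, dendritic and T cell gates. Doublets of a tumour cell with one of those cells were therefore not removed in this way. The members and lists were chosen with earlier results of these data known. Shares carry Clopper-Pearson and sums Poisson 95% intervals, for counting error only. Pool values are equal-weight means of 2 tags, and a tag at 0 was set to 3 counts in ratios. Calls needed at least 10 cells per tag, and T cells gave the background level only. For thinning, 500 molecules were drawn per cell. The genes named are the members, the panel's genes from fixed pathway, costimulation, interferon, regulator and receptor lists, and the 3 genes most like each member over gates and tags. Members, gate markers and genes under 100 molecules were left out of the search for like genes. From the interferon list 1 gene is not reported here and was left out of its counts and median. The calling step was tested on simulated counts. Alternatives were stricter and looser gates, removal of the 5% deepest cells, S100a8, S100a9 and Fth1 out of the total, TMM scaling (edgeR 4.0.16, R 4.3.3), each tag left out, a 2-fold rule, at least 100 molecules, and the 3 gate changes added after the data were seen. Python 3.11.15, numpy 2.4.6, pandas 2.3.3, scipy 1.17.1 and matplotlib 3.10.9 were used.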

Additional observations from a re-analysis of the deposited data

Results flagged for a closer look

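Part of each class II gene's molecules lay in cells that no comparison used. Cells that met no gate (2305 cells) held 17.9% of H2-Aa, 16.3% of H2-Ab1, 17.7% of H2-Eb1, 18.5% of H2-DMb2, 12.5% of H2-Ob and 13.6% of Cd74 molecules, and 381 of them carried at least 10 H2-Aa molecules. The 124 cells that met several gates held 14.8% of H2-Aa, 14.3% of H2-Ab1, 15.0% of H2-Eb1, 16.3% of H2-DMb2, 18.8% of H2-Ob and 18.6% of Cd74 molecules. Of those 124 cells, 100 carried at least 10 H2-Aa molecules and 78 at least 10 Cd74 molecules.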

How the results depend on the processing

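Of 285 recomputed log2 ratios, 16 changed sign, in 6 of 25 combinations of member and gate. In 1 of them the new value passed the call rule: H2-DMb2 of dendritic cells turned from -0.23 to 0.84 without tag 2, which held 57 of its molecules. The other 15 passed it in neither setting, among them H2-Ab1 of tumour cells (0.22, down to -0.21), H2-Eb1 of monocytes (0.10, down to -0.36), H2-Ab1 of dendritic cells (0.30, down to -0.21), H2-DMb2 of neutrophils (0.55, down to -0.21) and H2-Aa of neutrophils (-0.06, up to 0.26). Over all 285, 236 kept their side of the call rule, 39 passed it newly, 9 lost it and 1 reversed. In tumour cells 2 members were higher. Looser gates and the epithelial-marker gate gave 1, and TMM scaling and leaving out tag 1 gave 4. Beside H2-Aa and H2-Eb1, Cd74 was called with stricter gates (log2 ratio 1.72) and in tumour cells without macrophage markers (1.43). H2-DMb2 was called beside them without tag 4 (1.58). In macrophages 1 was higher; TMM scaling, leaving out tag 3 and removing the 5% deepest cells gave 3, and leaving out tag 1 or keeping macrophages with under 3 epithelial molecules gave 4. The 1 lower macrophage call became 0 with stricter gates, without the deepest cells, without S100a8, S100a9 and Fth1, under TMM scaling and with 2-fold spacing. Monocytes went from 0 lower to 1 with stricter or looser gates or without tag 2, and to 2 without tag 1 or tag 4. Dendritic cells went from 1 higher to 2 without the deepest cells or tag 3, to 3 under TMM scaling and to 4 without tag 2, and from 0 lower to 1 without tag 1. Neutrophils went from 0 higher to 1 with looser gates, without S100a8, S100a9 and Fth1, under TMM scaling and without tag 1, 2 or 3, and from 1 lower to 0 without S100a8, S100a9 and Fth1, with 2-fold spacing and with at least 100 molecules. The cause of these changes was not tested. The share of tumour cells with H2-Aa moved in tag 1 to 50.7% with stricter gates, 35.6% after thinning and 38.5% at 3 molecules or more. In tag 2 it moved to 51.5% after thinning, 50.7% at 3 molecules or more and 78.6% with the epithelial-marker gate. Looser gates gave 78.0% in tag 3 and 86.9% in tag 4, and thinning 81.6 and 89.9%. No paired analysis was possible because the labels give no replicate numbers and the results come from no test. Of 28 H2-Aa levels by gate and tag, 20 left their counting interval without S100a8, S100a9 and Fth1, 22 with looser gates, 21 with stricter gates and 15 without the deepest cells. Few molecules stand behind H2-Ob (48 in all), H2-DMb2 of monocytes (61), H2-Ab1 of neutrophils (90) and H2-Ab1 of B cells (13).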
